A study of Mus musculus with 15 samples.

Results

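The genes of the unfolded protein response and the integrated stress response were followed in MH-S cells, an SV40-transformed alveolar macrophage line of the mouse. The 37 members were chosen by gene symbol, all 37 were found among the 78317 gene identifiers of the count table, and all 37 passed the filter on low counts. They comprise 15 chaperones and folding enzymes of the endoplasmic reticulum (ER), 4 genes of ER-associated degradation, 4 genes of the stress sensors and XBP1, 3 transcription factors of the integrated stress response and 11 targets of ATF4 or of the same response. RNA was sequenced from 5 groups of 3 libraries after 24 h. M0 cells received medium alone. CaP and SiO2 cells received calcium phosphate or silica microrods at 0.1 mg/mL, both made with alginate and a protamine/carboxymethyl chitosan coating. M1 cells received LPS (1 µg/mL) and IFN-γ (20 ng/mL), and M2 cells IL-4 (20 ng/mL). Every library of a microrod group came from a well of its own with a particle batch of its own. The cells were of 1 line and 1 passage, so the spread between libraries includes no variation between passages or animals.

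Proteins that enter the ER are folded there by chaperones such as BiP (Hspa5) and GRP94 (Hsp90b1) and by disulfide isomerases. When unfolded protein accumulates, the sensors IRE1 (Ern1), PERK (Eif2ak3) and ATF6 respond. IRE1, through XBP1, and ATF6, through its cleaved form, raise the transcription of chaperones and degradation genes. PERK belongs to a set of kinases that phosphorylate the translation factor eIF2α. Amino acid shortage, viral RNA or haem deficiency act on the other kinases of that set. Phosphorylated eIF2α lowers protein synthesis and favours translation of ATF4, which raises genes of amino acid supply and the factor CHOP (Ddit3), a pattern known as the integrated stress response. In macrophages, which secrete much protein and engulf particles, both programmes are known to be engaged by inflammatory stimuli. A gene count measures neither the splicing of Xbp1 mRNA nor the translation of Atf4 mRNA, which are the regulated steps of those genes.

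Promoter sequences are shown first, since elements known from ER stress and ATF4 signalling sit there. RefSeq promoter windows (GRCm38.p6) were matched to 33 of the 37 members, and entries were missing for Hyou1, Manf, Atf6 and Slc7a5. The 250 bases before the annotated start were searched on both strands for the ER stress element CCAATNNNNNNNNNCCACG, in which N is any base. It was found in 37 of 32851 windows of all genes (0.113%). Among the members it was found in 7 of the 13 chaperone and folding genes with a window, in Syvn1 of the 4 degradation genes and in no sensor, transcription factor or ATF4 target. The chaperone genes with the element were Hspa5, Hsp90b1, Calr, Canx, Pdia6, Dnajc3 and Creld2, and Hsp90b1 held 2 copies. Several are shown 5′ to 3′ along the gene, with the element in capitals.
Hspa5 (chr2:34772015-34772053, plus strand): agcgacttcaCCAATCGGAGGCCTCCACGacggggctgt
Calr (chr8:84847065-84847103, minus strand): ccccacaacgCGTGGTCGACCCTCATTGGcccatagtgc
Hsp90b1 (chr10:86705628-86705666, minus strand): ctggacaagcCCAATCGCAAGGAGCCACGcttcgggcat
Hsp90b1 (chr10:86705523-86705561, minus strand): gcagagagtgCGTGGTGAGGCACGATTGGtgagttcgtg
Canx (chr11:50325790-50325828, minus strand): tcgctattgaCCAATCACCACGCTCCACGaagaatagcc
Creld2 (chr15:88819510-88819548, plus strand): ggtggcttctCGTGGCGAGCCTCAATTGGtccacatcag
Syvn1 (chr19:6046522-6046560, plus strand): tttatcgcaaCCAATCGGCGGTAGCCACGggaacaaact

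The amino acid response element of ATF4 and its partners, searched as TGATGNAA, was found in 1134 of all windows (3.45%) and in 4 members. These were Asns and Chac1 of the 10 ATF4 targets with a window, the factor gene Atf3 and the degradation gene Herpud1. The XBP1 element TGACGTGG was found in 185 of all windows (0.563%) and in 0 members. A match is a run of letters and not a measured binding site, and the absence of a match in this window says nothing on regulation from elsewhere in the gene.
Asns (chr6:7693215-7693242, minus strand): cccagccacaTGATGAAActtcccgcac
Chac1 (chr2:119351039-119351066, plus strand): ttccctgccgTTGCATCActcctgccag
Atf3 (chr1:191183426-191183453, minus strand): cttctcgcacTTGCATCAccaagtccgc
Herpud1 (chr8:94386307-94386334, plus strand): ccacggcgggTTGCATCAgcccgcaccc

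The 3 members that passed the test with CaP microrods, described further on, held none of these 3 motifs in the window. The last 80 bases before their annotated starts are shown.
Ddit3 (chr10:127290713-127290792, plus strand): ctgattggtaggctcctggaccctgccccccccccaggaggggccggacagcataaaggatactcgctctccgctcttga
Gdf15 (chr8:70632457-70632536, minus strand): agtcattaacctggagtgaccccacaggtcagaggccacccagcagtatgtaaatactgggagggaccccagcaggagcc
Ero1a (chr14:45318573-45318652, minus strand): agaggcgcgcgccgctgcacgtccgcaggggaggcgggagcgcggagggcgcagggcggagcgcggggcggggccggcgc

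The depth of the libraries lay between 8459643 and 68750050 counts. Levels are CPM, counts relative to a library size that TMM scales so that the bulk of genes is equal between libraries. Macrophage genes such as Cd68 (677 to 1322 CPM) and Lyz2 (322 to 2105 CPM) were high in every library. Of the genes that mark alveolar macrophages in the lung, Siglecf (at most 0.478 CPM) and Car4 (at most 0.0860 CPM) were near 0. Marco was low (at most 2.82 CPM, with a mean of 2.18 CPM in M1), as was Itgax (at most 4.93 CPM). Mrc1 reached 30.0 CPM, with a mean of 27.6 CPM in M2 against 1.85 CPM in M0. The highest of 16 marker genes of epithelial cells, fibroblasts, endothelial cells, lymphocytes and neutrophils was Pecam1, at 1.71 CPM or less. M0 replicate 3, M2 replicate 2 and SiO2 replicate 2 stood apart from their groups on the second principal component, with scores of -42.7, -43.9 and -21.7. In these libraries longer genes had relatively more counts, and each result below is also given without them where a call was lost. Whether fewer expressing cells or less RNA per cell lay behind a lower level cannot be told apart in bulk RNA.

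Per kilobase of exon, averaged over the 5 groups, the most abundant member was Phgdh (369 CPM per kb), the enzyme that opens serine synthesis. Sdf2l1 (268), Canx (221), Pdia6 (181) and Pdia3 (176 CPM per kb) followed. The rarest were the sensor genes Eif2ak3 (0.296) and Ern1 (0.271 CPM per kb), and the levels of these 2 overlapped between libraries. Eif2ak3 was represented by 8 to 89 counts and Ern1 by 15 to 167 counts per library. In the group means, 10 of the 15 chaperone and folding genes were highest in M2, and 8 of the 11 ATF4 targets were highest in M1. The share of all genes highest in each group was not counted. The highest group mean exceeded the lowest by 1.10 (Hsp90b1) to 2.01 times (Creld2) among those 10 genes. Among those 8 targets it did so by 1.27 (Psat1) to 13.1 times (Gdf15).

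**Figure D1:**
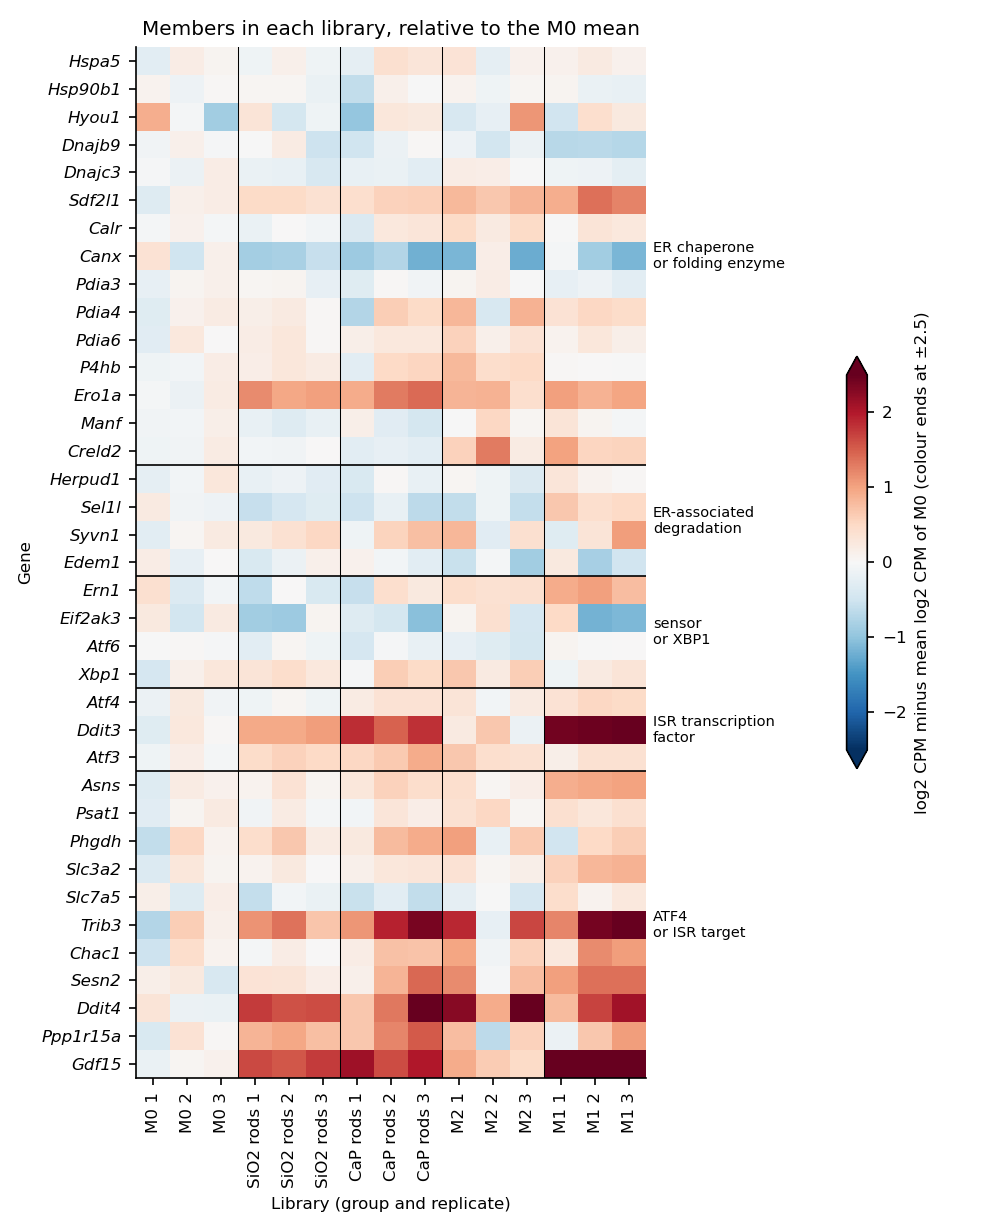
Level of each of the 37 members (rows, by role) in each of the 15 libraries (columns), as log2 CPM minus the mean log2 CPM of M0. Ddit3 and Gdf15 of the stress response are darker red in every M1 library than in any microrod library, whereas most chaperone rows stay pale in every group.

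M1 cells against M0 cells address how the classical inflammatory stimulus moved these genes. A gene was called when edgeR's quasi-likelihood test with Benjamini-Hochberg adjustment over all genes gave an adjusted p below 0.05 and the log2 fold change exceeded 0.5 in size. Of the 37 members 8 were called higher and 0 lower, where 9.7% of all 16654 genes tested were called higher and 4.37% lower. The 8 were 5 of the 11 ATF4 targets, 1 of the 3 transcription factors and 2 of the 15 chaperone and folding genes. No degradation or sensor gene was called.

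The largest change of any member was that of Gdf15, which encodes a secreted stress cytokine of the TGF-β family. It was counted at 1.74, 2.02 and 2.08 CPM in M0 and at 25.6, 26.3 and 24.5 CPM in M1, a log2 fold change of 3.74 (SE 0.21, adjusted p = 4.52e-08, edgeR). All M1 libraries were far above all M0 libraries, and the 3 M1 values were close together.

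Ddit3, which encodes CHOP, had 11.5, 16.8 and 14.5 CPM in M0 and 74.6, 77.3 and 80.6 CPM in M1. The log2 fold change was 2.45 (SE 0.22, adjusted p = 4.15e-06, edgeR), a 5.46-fold rise. The other transcription factors were not called. Atf4 itself had 80.5, 105 and 83.5 CPM in M0 and 114, 128 and 124 CPM in M1 (0.44, SE 0.15, adjusted p = 0.0634, edgeR). Its groups did not overlap, but the difference missed the threshold. Atf3 had a log2 fold change of 0.30 (SE 0.15, adjusted p = 0.222, edgeR). About 9.10% of the exon bases of Ddit3 also lie in exons of genes on the opposite strand, Mars and Gm4189, and 11.8% in a short second Ddit3 identifier that had 0 counts in every library. No source states that strand was used in counting, so reads in the shared bases cannot be assigned to a gene with certainty.

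Among the ATF4 targets, 2 of the 5 genes of amino acid supply were called. Asns, which makes asparagine, rose from 123, 178 and 166 CPM in M0 to 289, 301 and 308 CPM in M1 (log2 fold change 0.94, SE 0.17, adjusted p = 0.0017, edgeR). Slc3a2, the shared heavy chain of several amino acid transporters, rose from 223, 347 and 298 CPM to 427, 507 and 520 CPM (0.74, SE 0.17, adjusted p = 0.00888, edgeR). Both genes were higher in every M1 library than in any M0 library. Its light chain partner Slc7a5 was not called (0.25, SE 0.20), and neither were the serine synthesis genes Psat1 (0.35, SE 0.17) and Phgdh (0.21, SE 0.35).

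Trib3, a pseudokinase that feeds back on ATF4 and CHOP, had 7.03, 17.7 and 12.6 CPM in M0 and 27.2, 60.6 and 77.6 CPM in M1, with a log2 fold change of 2.17 (SE 0.53, adjusted p = 0.0145, edgeR). Sesn2, an inhibitor of the growth kinase mTORC1, had 10.7, 11.4 and 7.30 CPM in M0 and 19.5, 25.2 and 24.9 CPM in M1 (1.22, SE 0.33, adjusted p = 0.0249, edgeR). The groups did not overlap for either gene, but the M1 values of Trib3 were widely spread. Trib3 lost its call without M0 replicate 1 (adjusted p = 0.0701, edgeR) or M1 replicate 3 (0.0629), and Sesn2 lost it in 4 of 6 fits that left out 1 library, with an adjusted p of up to 0.0820. The mTORC1 inhibitor Ddit4 (1.53, SE 0.58, adjusted p = 0.0977, edgeR), the glutathione-degrading enzyme Chac1 (0.85, SE 0.32, adjusted p = 0.0921) and Ppp1r15a (0.57, SE 0.36, adjusted p = 0.326), the phosphatase subunit that reverses eIF2α phosphorylation, were not called. All 11 ATF4 targets had a log2 fold change above 0, with a median of 0.85, where the median of all genes tested was -0.01.

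Of the chaperone and folding genes 13 of 15 were not called, BiP among them. The median log2 fold change of the 15 chaperone and folding genes was 0.12, and 9 of the 15 values were above 0. BiP, a standard readout of ER stress, had 421, 570 and 529 CPM in M0 and 545, 587 and 542 CPM in M1 (log2 fold change of Hspa5 0.14, SE 0.19, adjusted p = 0.653, edgeR). The ranges of the groups overlapped, as they did for GRP94 (Hsp90b1, -0.09, SE 0.18). The genes called were Sdf2l1 and Ero1a. Sdf2l1, a partner of BiP, rose from 153, 208 and 216 CPM to 359, 494 and 450 CPM (1.18, SE 0.16, adjusted p = 0.000236, edgeR). Ero1a, the oxidase that recharges protein disulfide isomerase, rose from 166, 156 and 197 CPM to 351, 314 and 342 CPM (0.96, SE 0.17, adjusted p = 0.00165, edgeR). Every M1 library was above every M0 library for these genes. Dnajb9, a co-chaperone of BiP and a classical XBP1 target, was lower in every M1 library (4.13, 4.17 and 4.08 CPM) than in any M0 library (6.30, 7.22 and 6.49 CPM) but was not called (-0.69, SE 0.23, adjusted p = 0.0621, edgeR). Creld2 was near the threshold in the other direction (0.71, SE 0.23, adjusted p = 0.0574, edgeR). DESeq2 called Dnajb9 lower (adjusted p = 0.0309) and Creld2 (0.0446) and Ddit4 (0.0302) higher in addition to the 8, which made 10 members higher and 1 lower, where it called 11% of all genes higher and 5.81% lower.

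**Figure D2:**
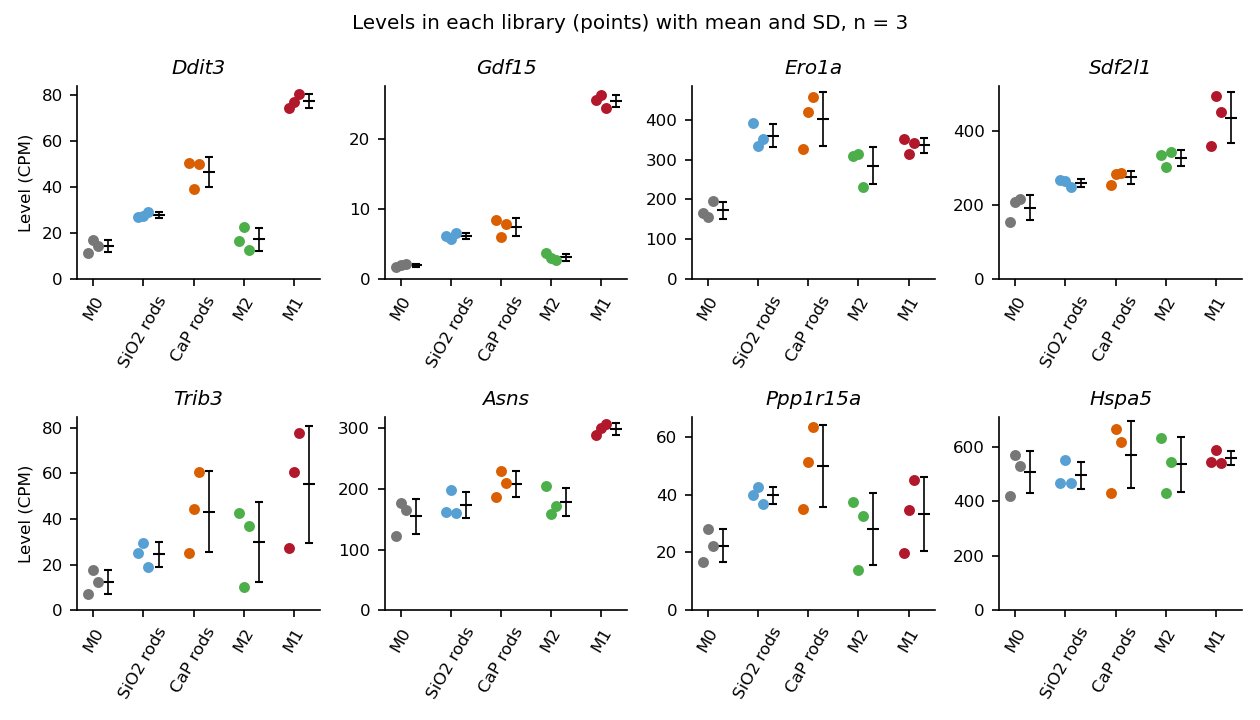
Levels in CPM (vertical axis, from 0) of 8 members in each of the 3 libraries of each group (points), with the mean and SD beside them. The Ddit3 and Gdf15 points of both microrod groups lie between those of M0 and M1, the Ero1a points of all 4 treated groups lie above M0, and the ranges of Hspa5 overlap.

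M2 cells against M0 cells gave 3 members called higher and 0 lower, where 2% of all genes were called higher and 2.13% lower. They were Sdf2l1, Ero1a and Ddit4. Sdf2l1 had 334, 302 and 343 CPM in M2, a log2 fold change of 0.76 (SE 0.16, adjusted p = 0.0150, edgeR), and Ero1a had 308, 314 and 231 CPM (0.72, SE 0.17, adjusted p = 0.0279, edgeR). Ddit4 had 2.61, 1.89 and 1.85 CPM in M0 and 10.1, 3.95 and 15.5 CPM in M2 (2.24, SE 0.56, adjusted p = 0.0380, edgeR). No M2 library overlapped M0 for these genes, although the M2 values of Ddit4 differed several-fold among themselves. None of the calls held in all 6 fits that left out 1 library. Sdf2l1 and Ero1a each held in 3 and Ddit4 in 1, and 0 members were called without M0 replicate 1 or M2 replicate 1, against 6 without M2 replicate 2. Without the 3 libraries that stood apart Ero1a missed the threshold (adjusted p = 0.0715, edgeR) at a log2 fold change of 0.74.

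Ddit3 had 16.4, 22.6 and 12.7 CPM in M2 (0.26, SE 0.21, adjusted p = 0.608, edgeR), overlapping M0, and Gdf15 had 3.68, 3.03 and 2.69 CPM (0.69, SE 0.22, adjusted p = 0.106, edgeR), above M0 in every library but not called. The highest group mean of 10 chaperone and folding genes was in M2, and edgeR called none of those genes in M2 against M0. Sdf2l1 and Ero1a, the pair already named, had their highest means in M1 and with CaP microrods. The median log2 fold change of the 15 was 0.20 where that of all genes was 0.07. The disulfide isomerase P4hb had 506, 390 and 403 CPM in M2 against 266, 273 and 325 CPM in M0 (0.59, SE 0.19, adjusted p = 0.112, edgeR). The 2 groups did not overlap. DESeq2 called P4hb (adjusted p = 0.0386) and Atf3 (0.0110) higher as well, 5 members in all, where it called 2.89% of all genes higher and 3.09% lower.

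M1 cells against M2 cells compared the polarized states with each other. Here 5 members were called higher in M1 and 0 lower, where 10.6% of all genes were called higher and 5.46% lower. Gdf15 differed by a log2 fold change of 3.05 (SE 0.20, adjusted p = 1.23e-07, edgeR) and Ddit3 by 2.19 (SE 0.21, adjusted p = 7.21e-06, edgeR). Asns had 205, 158 and 173 CPM in M2 and differed by 0.74 (SE 0.17, adjusted p = 0.00707, edgeR), and Slc3a2 had 367, 294 and 317 CPM and differed by 0.57 (SE 0.17, adjusted p = 0.0317, edgeR). The M1 libraries lay above the M2 libraries for all 4 genes. The call of Slc3a2 was lost in 4 of 6 fits that left out 1 library and without the 3 libraries that stood apart (adjusted p = 0.0791, edgeR). Sel1l, the scaffold of the HRD1 degradation complex, had 75.1, 62.5 and 66.4 CPM in M1 and 30.7, 43.8 and 31.1 CPM in M2 (0.96, SE 0.19, adjusted p = 0.00289, edgeR). Its M0 level, 54.8, 44.1 and 42.9 CPM, lay below M1 and overlapped M2, and neither M1 (0.52, adjusted p = 0.0772, edgeR) nor M2 (-0.44, adjusted p = 0.242) was called against it. DESeq2 called the same 5 members higher and P4hb lower (-0.61, adjusted p = 0.0127), where it called 10.6% of all genes higher and 6.56% lower.

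CaP microrods were compared with M0 in a model of the 9 M0, CaP and SiO2 libraries, in which 16621 genes were tested. Of the 37 members 3 were called higher and 0 lower, where 0.289% of all genes were called higher and 0.12% lower. They were Ddit3, Gdf15 and Ero1a, 1 each of the transcription factors, the ATF4 targets and the folding enzymes.

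Ddit3 had 50.5, 39.1 and 50.1 CPM with CaP microrods against 11.5, 16.8 and 14.5 CPM in M0, a log2 fold change of 1.72 (SE 0.19, adjusted p = 0.00716, edgeR). Gdf15 had 8.45, 5.98 and 7.80 CPM against 1.74, 2.02 and 2.08 CPM (1.97, SE 0.22, adjusted p = 0.00716, edgeR). Ero1a had 325, 421 and 457 CPM against 166, 156 and 197 CPM (1.21, SE 0.17, adjusted p = 0.0174, edgeR). Every CaP library was above every M0 library for each of them. Ddit3 was called in all 6 fits that left out 1 library, with an adjusted p of at most 0.0460, and Gdf15 in 5, missing the threshold without M0 replicate 1 (0.0781). Ero1a held in 2 of the 6, and without M0 replicate 1 its adjusted p was 0.111. Without the 3 libraries that stood apart, of which 1 is an M0 and 1 a SiO2 library in this model, 0 members were called. The log2 fold changes were then 1.72 for Ddit3 (adjusted p = 0.0635, edgeR), 2.00 for Gdf15 (0.0581) and 1.31 for Ero1a (0.0800), so the values remained while the calls did not.

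Several further members of the stress response were higher in every CaP library than in any M0 library without being called. Ppp1r15a had 35.0, 51.2 and 63.3 CPM against 16.8, 28.0 and 22.4 CPM in M0 (log2 fold change 1.16, SE 0.25, adjusted p = 0.0935, edgeR). Trib3 had 25.1, 44.4 and 60.4 CPM against 7.03, 17.7 and 12.6 CPM (1.82, SE 0.40, adjusted p = 0.0935). Atf3, a stress-induced repressor, had 64.2, 71.3 and 85.3 CPM against 41.8, 50.4 and 43.6 CPM (0.70, SE 0.16, adjusted p = 0.101). Each was called by DESeq2, an alternative count test, which called 7 members higher and 1 lower in this comparison, where it called 1.82% of all genes higher and 2.08% lower. Ddit4 was the fourth that DESeq2 added (edgeR log2 fold change 1.75, SE 0.49, adjusted p = 0.140), with 3.32, 5.19 and 13.5 CPM across the CaP libraries. Atf4 mRNA was not called (0.30, SE 0.15, adjusted p = 0.319, edgeR), with 103, 114 and 114 CPM.

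None of the genes of amino acid supply was called with CaP microrods by edgeR or DESeq2. Asns was higher in every CaP library (187 to 230 CPM) than in any M0 library (123 to 178 CPM). Its log2 fold change was 0.43 (SE 0.18, adjusted p = 0.246, edgeR). Those of Slc3a2 (0.21, SE 0.17) and Psat1 (0.13, SE 0.17) were smaller, and their libraries overlapped M0. Phgdh had 618, 900 and 983 CPM with CaP against 340, 740 and 553 CPM in M0, with overlapping libraries (0.61, SE 0.28, adjusted p = 0.285, edgeR). Slc7a5 had the only value below 0 among the 11 ATF4 targets (-0.50, SE 0.21, adjusted p = 0.261, edgeR). The median of the 11 was 0.61, where that of all genes was 0.06.

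Among the chaperone and folding genes the median was -0.12 and 7 of 15 values were above 0. The libraries differed, with a median of these genes relative to the M0 mean of -0.26 in CaP replicate 1. It was 0.27 in replicate 2 and 0.24 in replicate 3. Hspa5 had 432, 663 and 617 CPM (0.17, SE 0.19, adjusted p = 0.679, edgeR), overlapping M0. Sdf2l1 had 253, 283 and 286 CPM (0.51, SE 0.16, adjusted p = 0.150, edgeR), above M0 in every library. Canx, the membrane-bound lectin chaperone, had 725, 819 and 591 CPM against 1760, 967 and 1480 CPM in M0. Its log2 fold change was -0.98 (SE 0.22, adjusted p = 0.103, edgeR), and it was the member that DESeq2 called lower. Dnajc3 (26.6 to 28.5 CPM), Creld2 (93.4 to 98.1 CPM), Sel1l (29.8 to 41.1 CPM) and Atf6 (19.5 to 25.6 CPM) were also below M0 in every CaP library. They were called by neither edgeR nor DESeq2. The M0 libraries of Canx were themselves far apart, and in M1 and M2 a single library, M1 replicate 1 (1320 CPM) and M2 replicate 2 (1528 CPM), was at the M0 level while the others were at 577 to 744 CPM.

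**Figure D3:**
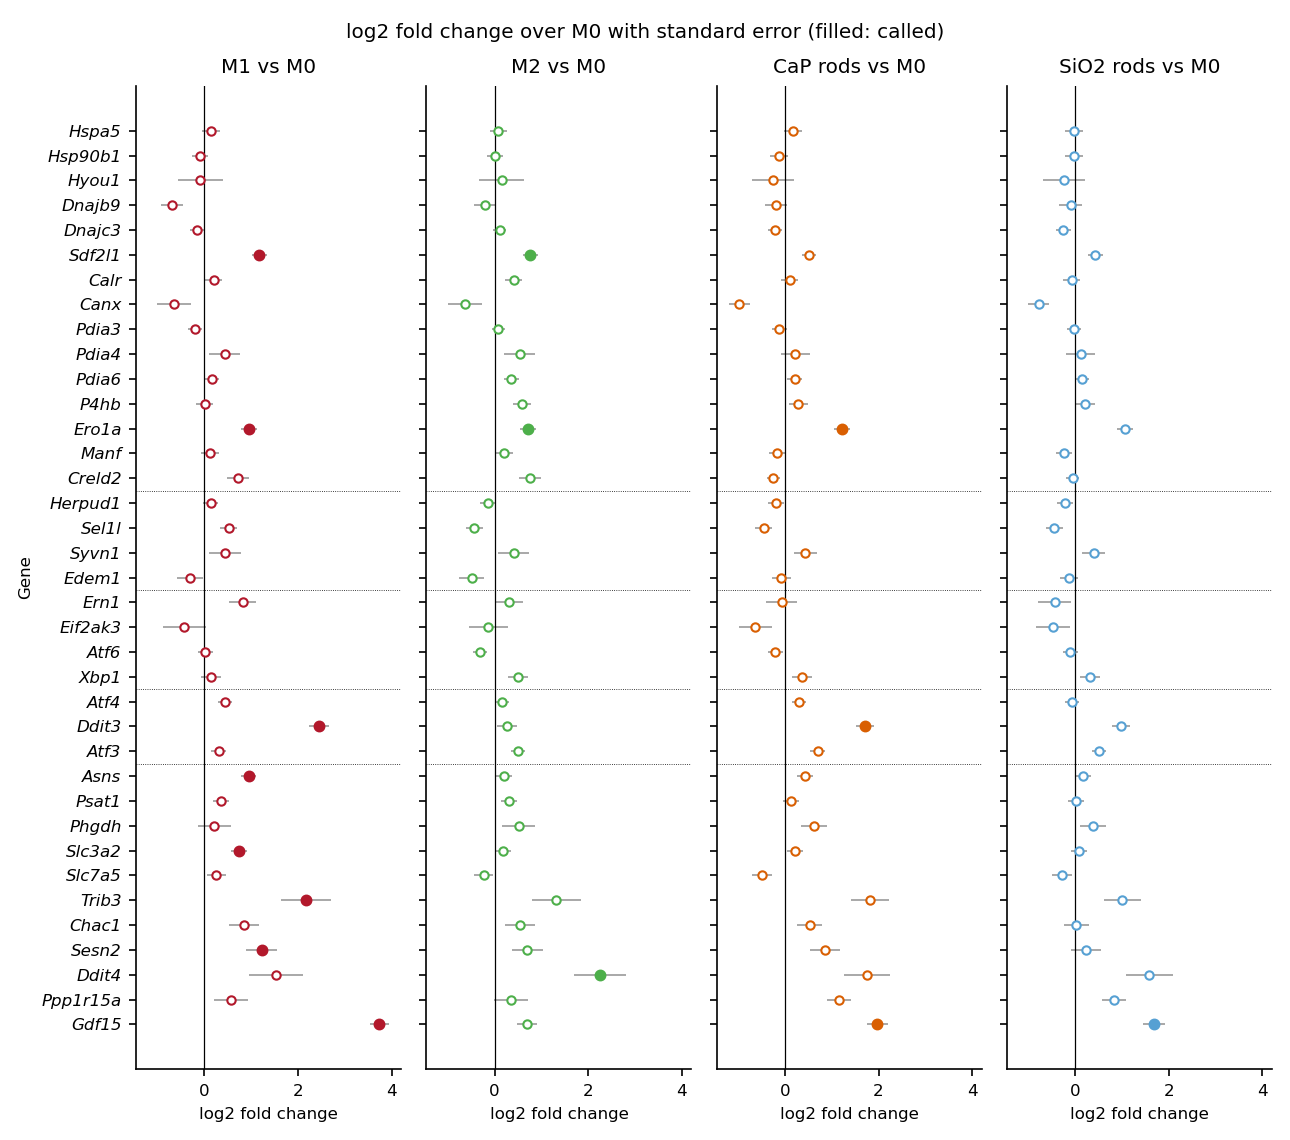
log2 fold change over M0 (horizontal axis) of the 37 members with the standard error derived from edgeR's F statistic (bars), in 4 comparisons. Filled points passed the test, 8 in M1, 3 in M2, 3 with CaP and 1 with SiO2 microrods, and dotted lines part the roles. The 4 comparisons share the M0 libraries.

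SiO2 microrods against M0 gave 1 member called higher and 0 lower, where 0.0541% of all genes were called higher and 0.00602% lower. It was Gdf15, with 6.12, 5.67 and 6.54 CPM (log2 fold change 1.69, SE 0.23, adjusted p = 0.0490, edgeR). All SiO2 libraries were above all M0 libraries. The call was lost in each of the 6 fits that left out 1 library, with an adjusted p of up to 0.376, and without the 3 libraries that stood apart (1.78, adjusted p = 0.331, edgeR). Ero1a had 391, 335 and 352 CPM (1.06, SE 0.17, adjusted p = 0.0749, edgeR) and Ddit3 27.1, 27.3 and 29.1 CPM (0.97, SE 0.19, adjusted p = 0.147, edgeR). Neither overlapped M0, and both were called by DESeq2, which called 3 members higher and 0 lower, where it called 0.517% of all genes higher and 0.259% lower. Ppp1r15a had 39.7, 42.7 and 36.7 CPM (0.83, SE 0.25, adjusted p = 0.387, edgeR), and Ddit4 had 7.05, 6.28 and 6.46 CPM (1.58, SE 0.50, adjusted p = 0.407), also above M0 in every library. As with CaP microrods, Atf3 (62.4 to 67.2 CPM), Trib3 (18.9 to 29.7 CPM) and Sdf2l1 (247 to 266 CPM) were above M0 in every library. So was Syvn1 (14.1 to 17.0 CPM). Canx (750 to 917 CPM), Dnajc3 (24.3 to 28.5 CPM) and Sel1l (31.4 to 37.8 CPM) were below M0 in every library, again as with CaP. Manf (131 to 143 CPM) was also below M0 in every library, but overlapped M0 with CaP (121 to 181 CPM). None of these was called by edgeR or DESeq2. Atf4 had 82.3, 91.5 and 82.3 CPM and overlapped M0 (-0.07, SE 0.15). The median log2 fold change was 0.23 for the 11 ATF4 targets and -0.03 for the 15 chaperone and folding genes, where that of all genes was -0.02.

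CaP microrods were then compared with SiO2 microrods, both given at the same mass per volume for the same time. Per the study the materials differ in density, so equal mass did not mean equal numbers of rods per cell. The comparison called 0 of 37 members with edgeR, where 0.018% of all genes were called higher and 0.00602% lower with CaP. At an unadjusted p below 0.05 there were 2 members, both higher with CaP, where 0.969% of all genes were higher and 0.896% lower at that level. DESeq2 called 0 members, where it called 0.0782% of all genes higher and 0.018% lower. The member with the clearest difference was Ddit3, at 50.5, 39.1 and 50.1 CPM with CaP and 27.1, 27.3 and 29.1 CPM with SiO2. The log2 difference was 0.74 (SE 0.18), and every CaP library was above every SiO2 library, but the adjusted p was 0.9999 (edgeR). Atf4 also did not overlap (0.37, SE 0.15), nor did Creld2, which was lower with CaP (-0.19, SE 0.14). Neither was called, and the share of all genes without overlap was not counted. For Gdf15 the log2 difference was 0.29 (SE 0.20), for Ero1a 0.16 (SE 0.16) and for Ppp1r15a 0.33 (SE 0.25), with overlapping libraries. Among the ATF4 targets 10 of 11 values were above 0, with a median of 0.26 where that of all genes was 0.03. Adjusted p-values this close to 1 do not show that the materials acted alike.

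CaP microrods against M1 set the particle response beside the inflammatory one, in the model of 15 libraries. Of the members 0 were called higher and 6 lower with CaP, where 3.54% of all genes were called higher and 9.11% lower. Gdf15 was lower by a log2 fold change of -1.77 (SE 0.18, adjusted p = 1.27e-05, edgeR), and Ddit3 by -0.73 (SE 0.20, adjusted p = 0.0280, edgeR). Both were thus above M0 and below M1 with CaP microrods. Sel1l had 32.9, 41.1 and 29.8 CPM with CaP and differed from M1 by -0.98 (SE 0.19, adjusted p = 0.00293, edgeR). Creld2 had 94.0, 98.1 and 93.4 CPM with CaP and 227, 163 and 165 CPM in M1 (-0.96, SE 0.23, adjusted p = 0.0146, edgeR). Sdf2l1 differed by -0.67 (SE 0.16, adjusted p = 0.0132, edgeR). Slc7a5, the light chain that carries leucine, had 14.3, 17.7 and 13.8 CPM with CaP and 28.7, 22.6 and 25.4 CPM in M1 (-0.75, SE 0.20, adjusted p = 0.0248, edgeR). The CaP and M1 libraries did not overlap for any of the 6. Ero1a went the other way without being called (0.26, SE 0.17, adjusted p = 0.332, edgeR), as did Ppp1r15a (0.59, SE 0.35, adjusted p = 0.296). With 1 library left out, Gdf15 and Sel1l held in all 6 fits, Ddit3 in 1, Slc7a5 in 2 and Sdf2l1 and Creld2 in 4 each. The count of members fell to 3 without M1 replicate 1, M1 replicate 3 or CaP replicate 3. DESeq2 called 9 members lower, with Asns, Slc3a2 and Ern1 added, and 0 higher, where it called 4.53% of all genes higher and 9.93% lower.

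Over the 7 comparisons edgeR called 12 of the 37 members at least once and 25 never, where 23.3% of all 17008 genes tested were called at least once. DESeq2 called 18 members at least once, where it called 28.4% of all genes, and the 6 it added were Dnajb9, Canx, P4hb, Ern1, Atf3 and Ppp1r15a. The 25 not called by edgeR were 12 chaperone and folding genes, 3 degradation genes, all 4 sensor and XBP1 genes, Atf4 and Atf3, and the targets Psat1, Phgdh, Chac1 and Ppp1r15a. Their highest group mean exceeded the lowest by 1.10 to 2.34 times, with a median of 1.39. The smallest ratio was that of Hsp90b1, with group means from 204 to 225 CPM, and the largest that of Ern1, which encodes IRE1. Ern1 had 2.40, 1.43 and 1.74 CPM in M0 and 3.44, 3.69 and 3.11 CPM in M1, without overlap (0.82, SE 0.30, adjusted p = 0.0830, edgeR). The gene of the sensor ATF6 lay between 19.3 and 27.6 CPM in all 15 libraries. Every M2 library (19.3 to 22.6 CPM) and CaP library (19.5 to 25.6 CPM) was below every M0 library (25.8 to 26.8 CPM). Xbp1 had group means from 136 CPM in M0 to 190 CPM in M2. Hyou1, a large chaperone of the Hsp70 family, spread from 21.4 to 73.5 CPM within M0 alone, so its SE was 0.45 to 0.49 against M0 in M1, M2, CaP and SiO2 cells. Among the degradation genes, Herpud1 had group means from 152 to 192 CPM, Syvn1 from 12.0 to 16.2 CPM and Edem1, a lectin that delivers misfolded glycoproteins, from 16.1 to 22.1 CPM.

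Replicates of a group differed among themselves, given here as a description without a test. Within M2 the highest library exceeded the lowest by a median of 2.09 times over the 11 ATF4 targets, against 1.36 times over the 15 chaperone and folding genes. With SiO2 microrods the corresponding medians were 1.18 and 1.17 times. With CaP microrods the widest spread was that of Ddit4, 4.07 times. The libraries involved were few. Of the 11 ATF4 targets, 8 were lowest in M0 replicate 1, 8 in M1 replicate 1, 8 in M2 replicate 2 and 9 in CaP replicate 1, and CaP replicate 1 was also the lowest for 11 of the 15 chaperone and folding genes. The median of the 11 targets relative to the M0 mean was 0.25 in CaP replicate 1 against 0.80 and 0.92 in the other CaP libraries, and -0.02 in M2 replicate 2 against 0.78 and 0.56. M2 replicate 2 is a library that stood apart. CaP replicate 1 was the library with the lowest relative counts of long genes (slope of -0.25 in log2 CPM per log2 exon length, against -0.08 and 0.06 in the other CaP libraries). The part of these features in the results was not tested.

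**Figure D4:**
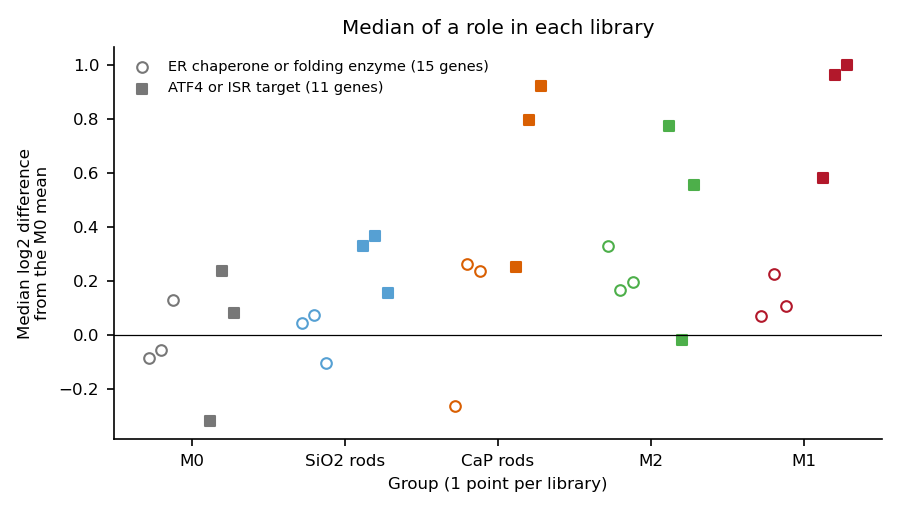
Median log2 difference from the M0 mean (vertical axis) of the 15 chaperone and folding genes (open circles) and the 11 ATF4 targets (filled squares) in each library (1 point per library). The target medians of M1 lie between 0.58 and 1.00 and those of CaP between 0.25 and 0.92, whereas the chaperone medians of all libraries lie between -0.26 and 0.33.

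Further genes of the same pathways were followed in 5 lists. In M1 against M0, 13 of the 78 tested genes of these lists were called higher (16.7%) and 2 lower (2.56%). Over all genes 9.7% were called higher and 4.37% lower. In M1 against M0, 3 of 13 tested genes of amino acid synthesis and transport were called higher and 0 lower. Cth, which makes cysteine, rose from a mean of 3.54 to 25.2 CPM (log2 fold change 2.83, SE 0.20, adjusted p = 4.86e-07, edgeR), and the cystine transporter gene Slc7a11 from 24.1 to 92.1 CPM (1.91, SE 0.49, adjusted p = 0.0176, edgeR). Of 12 aminoacyl-tRNA synthetases 4 were called higher, led by Aars (1.41, SE 0.22) and Sars (0.76, SE 0.15), and 11 of the 12 values were above 0. Of 25 tested genes of ER translocation, folding and export 4 were called higher, led by Serp1 (1.38, SE 0.20), which stabilises membrane proteins under ER stress, and Pdia5 (1.06, SE 0.22), and 1 lower, the translocon gene Tram1 (-0.95, SE 0.20). Of 15 further degradation genes only Derl1 was called (0.65, SE 0.19). Of 13 tested regulators the stress-induced Nupr1 was called higher (1.22, SE 0.28) and the amino acid sensing kinase gene Eif2ak4 lower (-0.65, SE 0.19).

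In M2, CaP and SiO2 cells against M0, and in CaP against SiO2 cells, edgeR called 0 of the 78 tested genes of the 5 lists. At an unadjusted p below 0.05 there were 4 higher and 4 lower in M2, 15 and 9 with CaP, 2 and 3 with SiO2, and 2 and 0 in CaP against SiO2. DESeq2 called 1 lower in M2, 2 higher and 2 lower with CaP, and 0 in the other comparisons of these. It called 3.09% of all genes lower in M2, and 1.82% higher and 2.08% lower with CaP. The amino acid list had a median log2 fold change of 0.74 with CaP and 0.27 with SiO2 microrods, and the synthetases 0.27 and 0.18, beside 0.06 and -0.02 over all genes. In M1 against M2, Cth (2.68, SE 0.20) and Mthfd2 (1.11, SE 0.17) led 2 called amino acid genes, Aars (0.91, SE 0.22) and Yars (0.58, SE 0.17) led 3 synthetases, Serp1 (1.45, SE 0.20) and Dnajc10 (1.25, SE 0.30) were the 2 called ER genes, Edem3 (0.85, SE 0.23) the only degradation gene, and Eif2ak4 was lower (-0.64, SE 0.19). Over the 5 lists 8 of the 78 tested genes (10.3%) were called higher in M1 than in M2 and 1 lower (1.28%). Over all genes 10.6% were called higher and 5.46% lower there. In CaP against M1 cells, 10 of the 78 tested genes of the 5 lists (12.8%) were called, all lower, where 9.11% of all genes were called lower. Among them were Cth (-2.01, SE 0.19), Mthfd2 (-0.77, SE 0.16), Serp1 (-1.25, SE 0.20), Dnajc10 (-1.17, SE 0.30), Aars (-0.81, SE 0.22), Edem3 (-0.80, SE 0.22), Nupr1 (-1.13, SE 0.28) and Eif2ak2 (-0.73, SE 0.18).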

How the data were processed

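RNA of MH-S cells was measured in 15 libraries of 5 groups, which were taken from the sample labels. Library preparation followed Smart-seq2, in which whole cDNA is amplified and molecules carry no identifier. Per the paper's methods the authors ran the nf-core/rnaseq pipeline with STAR and Salmon on a mouse genome with Ensembl annotation (GRCm39 in the submitters' processing notes), and deposited whole-number counts per gene without normalization. Salmon estimates counts, so the deposited counts may be rounded. Of the columns 0 were left unused.

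Symbols were given to 51487 identifiers from an annotation of another build (GENCODE, GRCm38), which also gave exon lengths. Ddit3 had a second identifier with 0 counts, which was left out. Counts were filtered with filterByExpr, scaled with TMM and tested with the quasi-likelihood test of edgeR 4.0.16 in R 4.3.3, with Benjamini-Hochberg adjustment. edgeR prints no SE, so each SE was derived as the absolute log2 fold change over the square root of the F statistic of the test. Comparisons with M1 and M2 used all 15 libraries (16654 genes), and the others the 9 M0, CaP and SiO2 libraries (16621 genes), with no replicate term. All CPM printed were scaled over the 15 libraries. The 37 members, the 5 further lists and the tests were chosen with earlier results of these data known. Every member was accounted for, members called in any comparison were given by library, and up to 2 genes per direction were named from each further list. With 3 libraries against 3 an exact permutation test cannot give p below 0.1, even where the groups do not overlap. Statements on overlap are therefore descriptions, and the share of all genes without overlap was not counted. p-values measure the spread between wells of 1 passage, which in the microrod groups also differed in particle batch. Replicate libraries differed beyond sampling noise (chi-square per gene of 7.55 to 152). The tests were tried on simulated data. Alternatives were DESeq2 1.42.0, DESeq2 size factors, no fold threshold, no filter, the legacy quasi-likelihood, a replicate block, other libraries in the model, and each library left out. Same-numbered M0 and M1 libraries deviated together from their group means (correlations of 0.29, 0.27 and 0.21), and no label says what the numbers share.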

Additional observations from a re-analysis of the deposited data

How the results depend on the processing

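In M1 against M0 the count of members called, 8, was 6 to 9 with 1 library left out and 8 with a replicate block, and no alternative moved it by over 1.5 times. In M2 against M0 the 3 members became 5 with DESeq2, 0 in a model of only the 6 libraries compared, 0 to 6 with 1 library left out (1 without M0 replicate 2) and 2 with the replicate block, which Ero1a then missed (adjusted p = 0.0614). In M1 against M2 the 5 became 3 with only the 6 libraries, 4 to 5 with 1 left out and 4 with the block. In CaP against M1 the 6 became 3 without a filter on low counts and 3 to 6 with 1 library left out, and stayed 6 with the block. In CaP against M0 the 3 became 8 with DESeq2, 6 without the filter, 0 without the 3 libraries that stood apart and 1 to 8 with 1 library left out (1 without M0 replicate 1, 5 without M0 replicate 2, 8 without CaP replicate 1), and 2 with the block, where Ero1a had an adjusted p of 0.0556. In SiO2 against M0 the 1 became 3 with DESeq2, 2 in the model of 15 libraries, and 0 with DESeq2 size factors, with the replicate block, without the 3 libraries that stood apart and in all fits with 1 library left out. CaP against SiO2 gave 0 under every alternative run. The causes were not tested. None of the 26 calls of a member changed direction in the alternatives run for it. For the medians of the chaperone and ATF4 target roles only DESeq2 size factors were tried, and neither median moved by more than its spread. A change of scaling shifts all genes nearly alike, so it cannot show how these medians depend on single libraries. The count of all genes called was 68 in CaP against M0, and 13 to 743 over the alternatives, 10 and 0 to 129 in SiO2 against M0, 4 and 1 to 16 in CaP against SiO2, 687 and 98 to 1361 in M2 against M0, 2342 and 1511 to 3610 in M1 against M0, 2679 and 1377 to 5264 in M1 against M2, and 2108 and 1350 to 3882 in CaP against M1.

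Same-numbered libraries correlated above 0.1 in every pair only in M1 against M0, so elsewhere the paired fits use a shared number alone, and a call lost under them is not a weaker effect. The smallest library held 8459643 counts, in which rare members such as Eif2ak3 and Ern1 were represented by few counts. Intervals from counts would cover counting error only, because amplified cDNA without molecular identifiers is not a count of independent molecules.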
